A study of Mus musculus with 6 samples.

Results

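Zinc finger genes of the KRAB and BTB kinds were examined in mouse neural stem cells in which the transcription factor gene Sox4 was targeted by RNA interference. The set held 328 rows, naming 325 genes, of the 11722 rows that name 1 gene and reach a level of at least 1 in the higher condition. Members were chosen by symbol, taking every gene named Zfp, Zbtb, Zkscan or Zscan with a number, besides Zik1 and Zim1, without Zfp36, which encodes an RNA-binding protein. A further 16 genes with such names lay below the level of 1, Zim1 among them. Zfp335, Zfp668 and Zfp689 stand in 2 rows each.

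Poly(A) RNA was sequenced in 6 libraries from CD-1 embryonic neural stem cells of embryonic day 14.5, bought from a supplier and kept as a monolayer on laminin with EGF and bFGF. There were 2 libraries with Sox4 shRNA 1, 2 with Sox4 shRNA 2 and 2 with a scrambled shRNA, a short hairpin RNA without the Sox4 target. All groups were transduced with lentivirus and kept under puromycin at 0.5 µg/mL, and the libraries of a group are numbered by passage, with no statement that passages came from separate cultures. The design text speaks of 1 shRNA against Sox4, while the labels name 2. The authors' deposited table compares 2 conditions that its header does not name, with 1 level per condition, so every direction here is the second condition over the first. Whether libraries of both Sox4 hairpins were joined in 1 condition is not given in the sources used here. No condition was assigned to a hairpin, and the depth per library is unknown. A gene "rose" or "fell" only where the authors marked it as significant, which is termed called, and the highest q-value among called rows is 0.0494.

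Zinc finger proteins of the C2H2 kind bind DNA through a row of fingers, each folded round a zinc ion. Those with a KRAB box recruit the co-repressor Trim28 and with it the methyltransferase Setdb1, and many are known to silence retrotransposons or to guard imprinted loci. The KRAB zinc finger genes have multiplied in clusters of near copies. Those with a BTB domain pair with themselves and recruit co-repressors such as Ncor1 or the Cul3 ubiquitin ligase, and several steer the fate of blood and neural cells. A SCAN domain, found in Zkscan and Zscan proteins, serves to pair one such protein with another.

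The symbol does not tell whether a protein has a KRAB box, so the label was checked against coding transcripts of GENCODE release M21. A KRAB box was found for 160 of 327 member rows with a coding transcript, 48.9% of them. These were 154 rows named Zfp or Zik1 and 6 Zkscan or Zscan rows. No box was found in 118 Zfp rows, 37 Zbtb rows and the other Zkscan and Zscan rows. The search rested on a profile of strict matches, so a divergent box could be missed and absence is not shown. Below, "without the box" means that none was found. The label is therefore borne out for part of the set only, and Zfp genes without the box are given apart. Zbtb8os, which encodes the tRNA ligation factor archease and not a zinc finger protein, is a member by its symbol alone. By the spacing of cysteines and histidines, no finger was found in 7 member rows, Zbtb8os among them. A KRAB box was found in 1 of these 7 rows. The stretch that encodes the box is shown for 4 members, Zfp68 because it was called, Zfp606 because it lay nearest to the threshold, and Zfp932 and Zfp568 because their roles in mice are known and their folds have opposite signs. Capitals mark the codons of a neighbouring glutamate and tryptophan that 140 of the 159 genes' boxes hold.
Zfp68: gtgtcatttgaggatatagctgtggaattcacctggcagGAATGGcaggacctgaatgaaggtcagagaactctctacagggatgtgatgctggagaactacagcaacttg
Zfp606: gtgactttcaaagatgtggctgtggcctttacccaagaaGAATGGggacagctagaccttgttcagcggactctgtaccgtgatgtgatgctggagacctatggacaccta
Zfp932: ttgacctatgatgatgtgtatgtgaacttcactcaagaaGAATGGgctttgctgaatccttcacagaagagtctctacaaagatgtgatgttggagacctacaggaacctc
Zfp568: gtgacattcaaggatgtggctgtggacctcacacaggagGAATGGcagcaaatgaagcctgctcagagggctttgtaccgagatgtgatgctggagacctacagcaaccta
Each stretch has 111 bases. Against the stretch of Zfp68, identical bases made up 64.9% in Zfp606, 64.9% in Zfp932 and 74.8% in Zfp568. On GRCm38, Zfp68 lies at chr5:138603652-138619761 on the minus strand and Zfp606 at chr7:12478293-12496235 on the plus strand. Zfp932 lies at chr5:109996521-110010411 and Zfp568 at chr7:29983955-30028282, both on the plus strand.

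Few zinc finger genes were called, while those with a KRAB box were lower in the second condition in most cases. Of the 328 member rows 1 rose and 1 fell, or 0.610%, where the authors' calls took 5.12% of all 11722 rows, 3.26% as rises and 1.86% as falls. The median log2 fold of the members was -0.12 in the authors' deposited table, against 0.0018 over all rows. Of the members 216 had a negative log2 fold, or 65.9%, against 49.8% of all rows. The sign was unevenly spread over the families. Of the 160 rows with a KRAB box 136 were negative, 130 of them among the 154 Zfp and Zik1 rows. Of the 168 rows without a box found 80 were negative. The set was not tested as a whole, so these counts and medians describe 1 comparison. In bulk RNA, fewer cells of a type and less RNA per cell cannot be told apart.

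**Figure D1:**
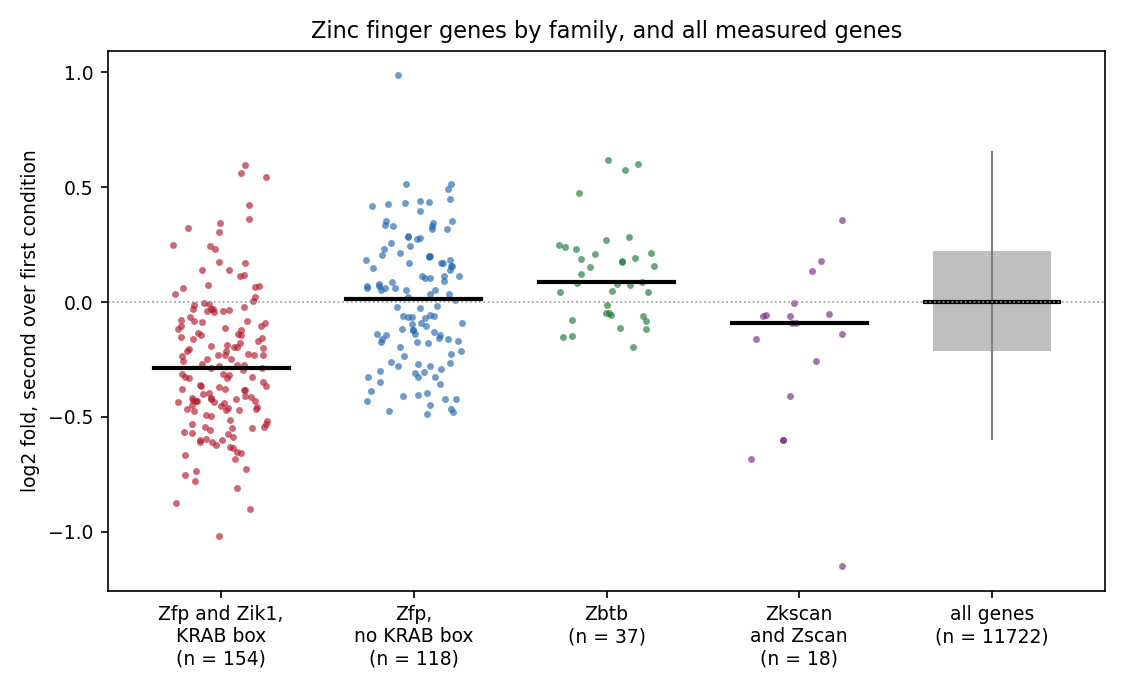
The log2 fold of the second over the first condition is plotted for each member row by family, with the median as a bar, beside all 11722 rows as a box from the lower to the upper quartile with whiskers from percentile 5 to percentile 95. The 154 KRAB box rows centre on -0.29, while the 118 Zfp rows without the box and the 37 Zbtb rows centre on 0.01 and 0.09.

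The gene that rose, Zfp703, encodes a nuclear co-repressor of the NET family and has no KRAB box and no finger of the classical spacing. Its level was 29.5 in the second condition and 14.9 in the first condition in the authors' deposited table. The log2 fold was 0.99, or 1.98-fold, and the Cuffdiff q 0.0030, as the authors' deposited table has it. Its relative Zfp503, uncalled, stood at 1.81 in the second and 1.77 in the first condition in the authors' deposited table. Exons of Zfp703 overlap Gm45371, which lies on the opposite strand. Without strand in the counting, which no source used here states, their reads would be mixed.

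The gene that fell, Zfp68, has a KRAB box and 9 fingers. Its level was 8.05 in the second condition and 12.8 in the first condition in the authors' deposited table. That is a log2 fold of -0.67, and the authors' deposited table gives a Cuffdiff q of 0.0322. The same limit holds for Zfp68, whose exons overlap Gm24082 and Gm42815. Zfp606, likewise with a KRAB box, stood at 8.77 in the second and 13.6 in the first condition in the authors' deposited table. Its q of 0.0510 in the authors' deposited table just missed the call, and q recomputed over the rows with a level of at least 1 put it on the other side of 0.05.

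**Figure D2:**
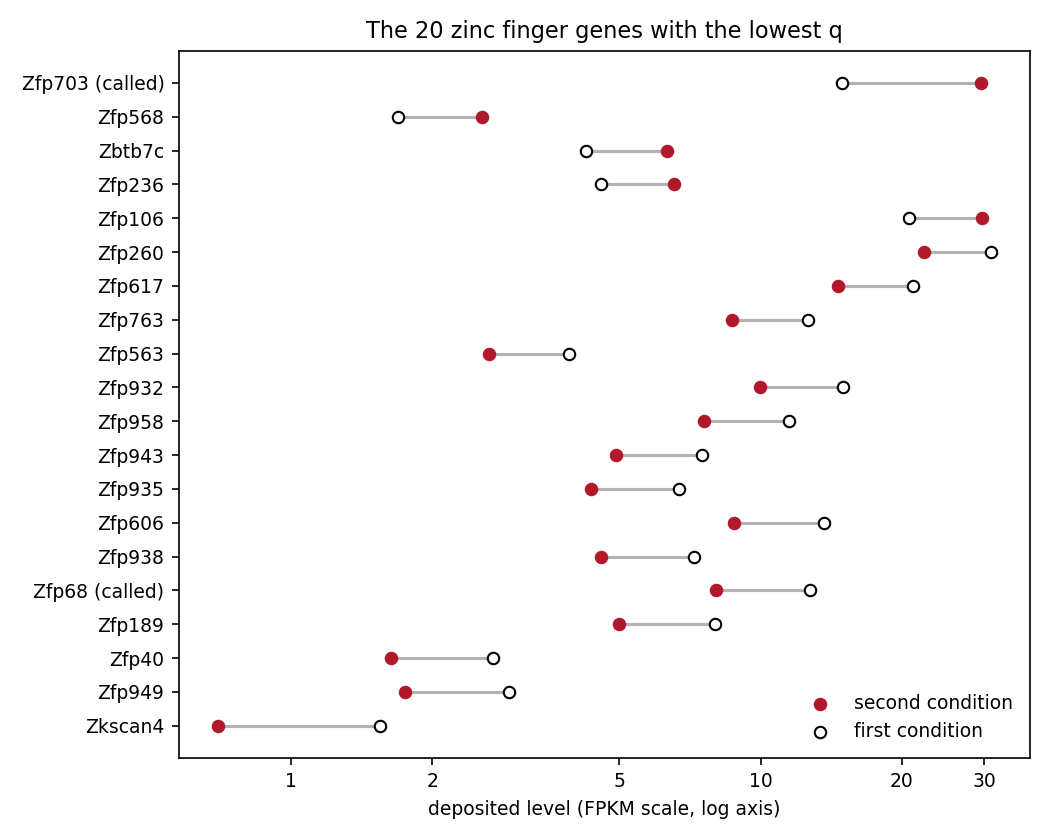
Deposited levels in the second condition (filled) and the first condition (open) are shown on a log axis for the 20 members with the lowest q. Of these, 5 lie higher in the second condition, Zfp703 with the widest gap among them, and 15 lie lower, and 2 are called.

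Among Zfp and Zik1 genes with a KRAB box, lower values in the second condition were frequent, and 1 of them was called. The median log2 fold of the 154 rows was -0.29, a ratio of 0.820, with quartiles at -0.47 and -0.08. At an unadjusted p under 0.05, 34 rows were lower (22.1%) and 1 was higher (0.649%), where 7.65% of all rows were lower and 9.99% higher and 17.6% passed in either direction. A log2 fold under -0.25 was seen in 83 of the 154 rows, or 53.9%, against 21.1% of all rows. The levels of these rows summed to 743 in the second and 887 in the first condition in the authors' deposited table. The 1 higher row was Zfp568.

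Members with known silencing roles in mice illustrate the range. Zfp932, a repressor of endogenous retroviruses, stood at 9.95 in the second and 14.97 in the first condition in the authors' deposited table, where its log2 fold is -0.59 and its q 0.113. Zfp568, which silences a placental transcript of Igf2, stood at 2.55 in the second and 1.69 in the first condition in the authors' deposited table, with a log2 fold of 0.60 and a q of 0.152. These were not called, and their signs differ. Zfp809, which silences murine leukaemia virus, stood at 9.79 in the second and 9.99 in the first condition in the authors' deposited table. Zfp57 and Zfp445 keep the methylation of imprinted loci. Zfp57 stood at 1.45 in the second and 1.88 in the first condition, and its log2 fold of -0.38 in the authors' deposited table became -0.24 with a pseudocount of 1. Zfp445 stood at 15.7 in the second and 16.1 in the first condition in the authors' deposited table. Zfp110 and Zfp369, a pair first described as binding the neurotrophin receptor p75, had log2 folds of -0.23 and -0.30 in the authors' deposited table, neither called. Zik1 had a log2 fold of -0.03 there and Zfp961 of -0.11.

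Other KRAB box genes with low q-values were lower in the second condition in most cases. Zfp189 stood at 4.99 in the second and 8.02 in the first condition in the authors' deposited table, with a q of 0.0670. Zfp617 stood at 14.6 in the second and 21.1 in the first condition in the authors' deposited table, with a q of 0.104. Both were lower in the second condition, and neither was called. Of the windows of 50 bases in the transcript of Zfp617, 44.0% also occur in other genes. The lowest log2 fold of the family, -1.02 for Zfp85 in the authors' deposited table, rests on levels of 0.601 in the second and 1.22 in the first condition. Zfp108 and Zfp273 follow with log2 folds of -0.90 and -0.87 in the authors' deposited table, and levels under 1 in the second condition. With a pseudocount of 1, the log2 folds of Zfp85, Zfp108 and Zfp273 were -0.47, -0.44 and -0.44. Of the 24 KRAB box rows with a positive log2 fold, Zfp568, Zfp7 and Zfp69 had the highest, 0.60, 0.56 and 0.54 in the authors' deposited table. With a pseudocount of 1, those of Zfp7 and Zfp69 were 0.36 and 0.32.

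The filter on level favours genes that are high in either condition. Of the members, 319 reached a level of 1 in both conditions, 8 in the first only and 1 in the second only. Of the 154 KRAB box rows 146 reached it in both, and 123 of these had a negative log2 fold, with a median of -0.28. Just inside the level of 1 were Zfp850, at 0.814 in the second and 1.01 in the first condition, and Zfp934, at 1.02 and 0.981, in the authors' deposited table. Just outside were Zfp182, at 0.536 in the second and 0.982 in the first condition, and Zfp607, at 0.949 in both, in the authors' deposited table. Zbtb16, which encodes PLZF, was below the level of 1 as well, at 0.670 in the second and 0.682 in the first condition in the authors' deposited table.

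Transcript length moves with the log2 fold over all genes. The median log2 fold of all genes was -0.22 in the shortest of 10 equal length groups, up to 1240 bases, and 0.24 in the longest, from 6856 bases. The KRAB box rows had a median length of 3409 bases against 3192 bases for all genes. In each of the 10 length groups their median was below that of all genes. That of Zfp rows without the box was below it in 8 of the 10 groups. For Zbtb rows this was so in 3 of the 8 groups that held any. With the median of the same length group taken off, the median log2 fold of KRAB box rows was -0.32, and with the median of the same level group taken off it was -0.34. KRAB box genes were also low in level, with medians of 3.04 in the second and 3.88 in the first condition in the authors' deposited table, against 13.5 and 13.4 for all genes. In each of the 8 groups of level that held any, their median was below that of all genes. For Zfp rows without the box this was so in 5 of 10 groups of level.

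**Figure D3:**
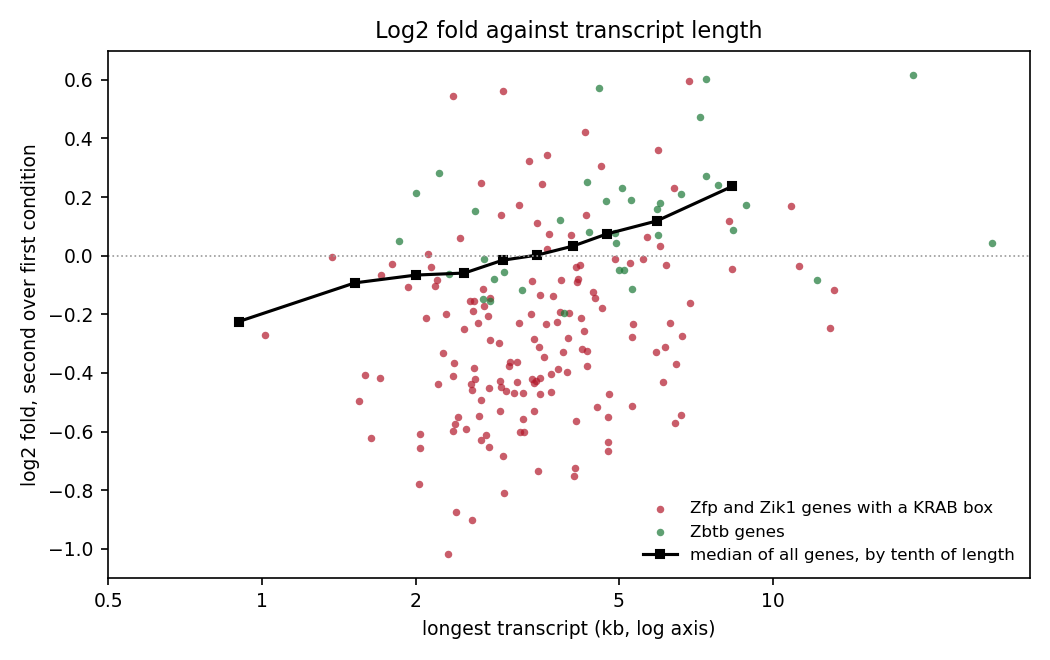
The log2 fold of each KRAB box and Zbtb row is plotted against its longest transcript in kilobases on a log axis, with squares for the median of all genes in each of the 10 length groups. The squares climb from -0.22 to 0.24, and most KRAB box points lie under them, while Zbtb points lie on both sides.

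KRAB box genes stand in clusters, and the negative values were present inside and outside them. Runs of at least 5 KRAB box members with gaps of up to 500 kb numbered 9 and held 76 rows, of which 63 had a negative log2 fold. Of the 78 other KRAB box rows 67 had one. The longest run, at chr17:21008903-23599487 on GRCm38, held 15 members with 14 negative and a median of -0.46. A run at chr13:67121660-67827002 had 8 of 8 negative, with a median of -0.47, and a run at chr8:69209038-69791178 had 6 of 6 negative, with a median of -0.37. In a run at chr7:29768552-30134950, which holds Zfp568, 10 of 12 were negative and the median was -0.12. The run at chr6:47819266-48086593 had 4 of 6 negative with a median of -0.03. By chromosome, 36 of 46 KRAB box rows were negative on chromosome 7, 23 of 27 on chromosome 17 and 14 of 15 on chromosome 13, while 2 of 5 were on chromosome 15.

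**Figure D4:**
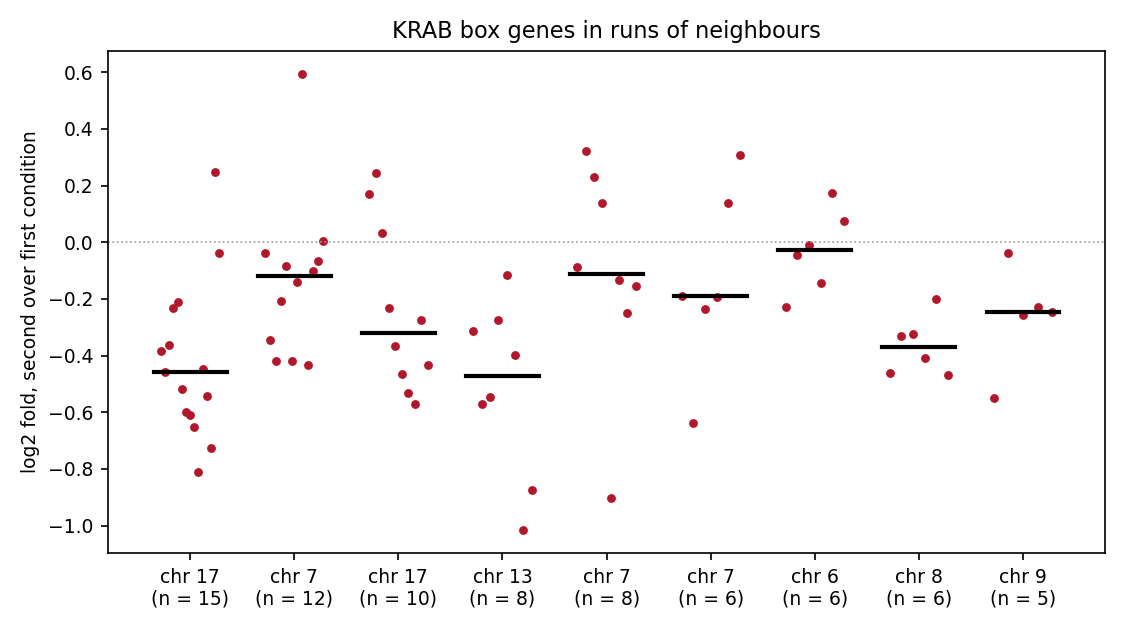
The log2 fold of each member is plotted for the 9 runs of neighbouring KRAB box genes, in order along the chromosome within a run, with the run's median as a bar. All points lie below 0 in the runs on chromosomes 13, 8 and 9, and the runs on chromosomes 7 and 6 hold points on both sides.

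Near copies share sequence, which bears on how reads are assigned. The 21-base coding run held by the most members was present in 22 of 324 genes with a coding transcript. It covers the end of a finger and the linker to the next finger. The run is shown at the first of its 2 places in Zfp932, on chromosome 5, from base 876 to base 896 of the coding sequence.
Zfp932 linker: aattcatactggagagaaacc
Of those 22 genes, 21 are Zfp genes with a KRAB box. Over whole transcripts, 53 of the 328 member rows had more than 5% of their 50-base windows in a transcript of another gene, and 35 of them were KRAB box rows. These 35 had a median log2 fold of -0.44, with 32 negative, and the 119 KRAB box rows with less sharing had a median of -0.25, with 98 negative. In the run on chromosome 13, 6 of 8 members were above 5%, and in the run on chromosome 8, 4 of 6 were. Values of such genes are uncertain where the authors' counting could split reads between genes. Windows shared with a gene that overlaps the member count as well, so these shares do not measure near copies alone. Zbtb9, whose exons overlap Ggnbp1 on the same strand, had 98.2% of its windows shared. Zfp935, at 4.36 in the second and 6.71 in the first condition in the authors' deposited table, has all of its windows in other genes, so its level cannot be set apart.

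KRAB box proteins also carry more fingers than the rest, with a median of 12 against 8 in Zfp proteins without the box and 4 in Zbtb proteins. All 160 rows with a KRAB box were grouped by finger number, Zkscan and Zscan rows included. Among these the median log2 fold was -0.14 in the 7 rows with up to 4 fingers and -0.20 with 5 to 9 fingers. It was -0.30 with 10 to 14 and -0.35 with 15 or more. Among member rows without the box it was 0.05 with up to 4 fingers, 0.05 with 5 to 9 fingers, -0.12 with 10 to 14 and 0.10 with 15 or more. The number of fingers was counted by the spacing of cysteines and histidines in the translated transcripts.

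Zfp genes without a KRAB box had no common direction in the sign of the deposited log2 fold. Of the 118 rows 60 had a positive and 58 a negative log2 fold, with a median of 0.01, and 1, Zfp703, was called. At an unadjusted p under 0.05, 7 were higher (5.93%) and 6 lower (5.08%), where 9.99% and 7.65% of all rows were. The median was -0.06 without the longest 10% of transcripts, and likewise -0.06 with the length group median taken off, so its sign changed with the setting. Zfp207, which encodes the spindle protein BuGZ, had the highest level of all members, 120.6 in the second and 151.4 in the first condition in the authors' deposited table. Zfp219, a partner of Sox9 in mouse cartilage, stood at 79.8 in the second and 59.8 in the first condition in the authors' deposited table. Zfp191 and Zfp664 were next in level, at 60.7 and 60.9 in the second condition against 67.0 and 54.2 in the first condition in the authors' deposited table. Zfp740, at 49.5 in the second and 47.2 in the first condition in the authors' deposited table, completed the 5 highest. None of the 5 was called.

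Members without the box that act in neural cells were not called. Zfp106, an RNA-binding protein needed by mouse motor neurons, stood at 29.6 in the second and 20.8 in the first condition in the authors' deposited table, with a q of 0.0742. Zfp335, which proliferating mouse neural progenitors need, had rows at 13.6 and 7.21 in the second against 10.03 and 5.29 in the first condition in the authors' deposited table, neither called. Both rows of Zfp335 were higher in the second condition, with log2 folds of 0.44 and 0.45. Zfp423, a partner of Ebf factors, stood at 4.37 in the second and 5.49 in the first condition, and Zfp521, which promotes neural differentiation of mouse embryonic stem cells, at 11.7 and 13.7, in the authors' deposited table. Neither was called. Zfp281, Zfp148 and Zfp143, which bind promoters of many genes, had log2 folds of 0.06, 0.11 and 0.16 in the authors' deposited table. Zfp462 had a log2 fold of 0.21 and Zfp292 of -0.12 there. Zfp326, which takes part in coupling transcription with splicing, stood at 26.1 in the second and 32.4 in the first condition in the authors' deposited table. Zfp704, Zfp217, Zfp652 and Zfp644 had log2 folds of 0.28, 0.06, 0.05 and -0.10 there, and none was called.

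The rows of Zfp668 and Zfp689 disagree in part. Zfp668 had rows at 10.6 and 8.92 in the second against 9.85 and 11.8 in the first condition in the authors' deposited table, so their signs differ. Zfp689 had rows at 4.50 and 3.94 in the second against 4.42 and 3.11 in the first condition in the authors' deposited table, both positive.

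Zbtb genes leaned the other way, with small values. Of 37 rows 25 had a positive and 12 a negative log2 fold, with a median of 0.09, and 0 were called by Cuffdiff. At an unadjusted p under 0.05, 4 were higher and 0 lower, where 9.99% and 7.65% of all rows were. No Zbtb row had a log2 fold under -0.25. These transcripts are long, with a median of 4944 bases, and with the median of the same length group taken off their median log2 fold was 0.0046. The 4 with the lowest p were Zbtb7c, Zbtb37, Zbtb40 and Zbtb38. Zbtb7c stood at 6.32 in the second and 4.25 in the first condition in the authors' deposited table, with a q of 0.119. Zbtb38, which binds methylated DNA, stood at 3.14 in the second and 2.07 in the first condition in the authors' deposited table, with a q of 0.192.

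The Zbtb genes with known neural roles had close levels in both conditions. Zbtb18, a repressor that cortical neurons need to differentiate, had the highest level of the family, 48.8 in the second and 47.3 in the first condition in the authors' deposited table. Zbtb20, which acts in the developing hippocampus and in astrocyte formation in mice, stood at 23.7 in the second and 23.0 in the first condition in the authors' deposited table. Zbtb45, reported to act in glial differentiation in mice, stood at 12.6 in the second and 14.4 in the first condition in the authors' deposited table. None was called, and their q-values in the authors' deposited table were 0.951, 0.956 and 0.724. Zbtb33, the methylated DNA reader Kaiso, and Zbtb17, the Myc partner Miz1, had log2 folds of -0.05 and -0.01 in the authors' deposited table. Zbtb7a and Zbtb7b, known as LRF and as the T cell factor ThPOK, had log2 folds of 0.16 and 0.25 there. Zbtb4, which like Zbtb38 is related to Kaiso, and Zbtb24, in which human mutations cause loss of methylation at repeats, had log2 folds of 0.24 and -0.08 in the authors' deposited table. The log2 folds of Zbtb1, Zbtb2, Zbtb10, Zbtb11, Zbtb12, Zbtb14 and Zbtb46 in the authors' deposited table lay between -0.12 for Zbtb2 and 0.27 for Zbtb10, none called.

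Zkscan and Zscan genes had mostly negative log2 folds, without a call. Of 18 rows 15 had a negative log2 fold, with a median of -0.09, and 0 were called by Cuffdiff, against 5.12% of all rows. At an unadjusted p under 0.05, 2 were lower (11.1%), against 7.65% of all rows. Zkscan4 had the lowest log2 fold of all members, -1.15 in the authors' deposited table, at levels of 0.697 in the second and 1.55 in the first condition and a q of 0.0882. With a pseudocount of 1 it was -0.59. Zkscan3, a repressor of autophagy genes, stood at 14.95 in the second and 15.6 in the first condition, and Zscan21 at 26.6 and 31.8, in the authors' deposited table. Zkscan17, Zkscan1 and Zscan26 had log2 folds of -0.09, -0.06 and -0.05 there.

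Genes of the partner proteins had positive log2 folds in most cases. Of 33 measured genes of the KRAB co-repressor machinery 24 had a positive log2 fold, with a median of 0.15, and 1 rose and 0 fell. Over all rows 3.26% rose and 1.86% fell, so 1 rise among 33 genes is near the share of all rows. That median was 0.09 with the median of the same length group taken off. Trim28 stood at 168.4 in the second and 146.6 in the first condition, and Setdb1 at 27.0 and 24.1, in the authors' deposited table, neither called. Uhrf1, which brings Dnmt1 to newly copied DNA, was the rise, at 62.1 in the second and 39.7 in the first condition in the authors' deposited table, with a q of 0.0162. Of the HP1 genes, Cbx5 stood at 121.7 in the second and 102.6 in the first condition and Cbx3 at 143.1 and 177.3 in the authors' deposited table. Dnmt1 and Dnmt3a had log2 folds of 0.49 and 0.51 in the authors' deposited table, with q-values of 0.0949 and 0.0827.

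The 17 measured partners of BTB proteins had a median log2 fold of 0.04, and 0 fell by Cuffdiff's call, with 1 lower at an unadjusted p under 0.05. Of all rows 1.86% fell by that call and 7.65% were lower at that p. The median was 0.04 with the length group median taken off as well. Bcor and Crebbp were among those that rose. Bcor, a co-repressor bound by Bcl6, stood at 6.21 in the second and 3.46 in the first condition in the authors' deposited table, with a q of 0.0071. Crebbp, an acetyltransferase, stood at 14.7 in the second and 8.61 in the first condition in the authors' deposited table, with a q of 0.0030. Both transcripts fall in the longest of the 10 length groups, at 6941 and 10820 bases. Ncor1 and Cul3 had log2 folds of -0.03 and -0.12 in the authors' deposited table. A list of BTB genes under other names, not checked against sequence, held 7 measured genes. Among them Nacc1 and Nacc2 encode BTB proteins without a zinc finger. Of the 7 genes, 0 were called by Cuffdiff and 1 passed an unadjusted p under 0.05, against 5.12% and 17.6% of all rows. That gene was Bcl6, at 7.06 in the second and 10.7 in the first condition in the authors' deposited table. Of 51 other C2H2 zinc finger genes, 1 rose, where 3.26% of all rows did, and 34 had a positive log2 fold, with a median of 0.18. The rise was Gli3, at 5.94 in the second and 3.41 in the first condition in the authors' deposited table. Transcripts of these 51 genes had a median length of 5212 bases, and with the length group median taken off their median log2 fold was 0.04.

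Since a Sox factor was targeted, promoters were searched for ACAAAG and ACAATG, the core letters bound by Sox proteins, on both strands of the 300 bases round each start in RefSeq on GRCm38.p6. Promoters were found for 271 member genes, Zfp703 not among them. The 250 bases upstream of the start of Zfp68 held neither word. Either word was present in 30.6% of 157 promoters of KRAB box genes, 23.1% of 117 promoters of Zfp genes without the box and 15.6% of 45 Zbtb promoters. Among Zkscan and Zscan genes it was present in 35.3% of 17 promoters, the highest share of these families. It was present in 28.6% of all 32851 promoters and in 19.7% of the 11647 promoters of all measured genes. The median content of G and C was 54.0% in KRAB box promoters and 55.3% in Zkscan and Zscan promoters. It was 62.3% in promoters of Zfp genes without the box and 65.3% in Zbtb promoters. Promoters of measured genes had 61.3% and all promoters 52.7%. The order of these medians matched that of the shares in part only, and the part of base composition was not tested.

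The targeted gene and cell type markers set the frame. Sox4 stood at 83.9 in the second and 126.8 in the first condition in the authors' deposited table, with a q of 0.0543, and was not called. Of 9 neural stem cell markers 8 were in the rows analysed here, at 12.4 or more, with 1 rise, Nes, and 2 falls, Fabp7 and Hes5. All 4 astrocyte markers were measured, with 1 rise, Aldh1l1, and 2 falls, Gfap and Aqp4. Their levels summed to 26.8 in the second and 53.2 in the first condition in the authors' deposited table. Most of that gap was Gfap, at 5.08 in the second and 29.7 in the first condition, while Aldh1l1 stood at 11.6 and 4.98. Of 4 neuronal markers 3 and of 5 oligodendrocyte lineage markers 4 were measured, with 0 called by Cuffdiff. Their summed levels were 132.3 and 1206 in the second against 129.5 and 1387 in the first condition in the authors' deposited table. The neuronal sum was mostly Map2, at 127.4 in the second and 122.1 in the first condition, while Tubb3, uncalled, stood at 3.90 and 6.75. None of the 4 microglia and blood, 4 fibroblast or 2 endothelial markers was in the rows analysed. The part of a shift among these cell types in the values of zinc finger genes was not tested.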

How the data were processed

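The 6 libraries of poly(A) RNA were processed by the authors with TopHat2 2.0.9, Cufflinks 2.2.1 and Cuffdiff on mm10, per the submitters' processing notes. Annotation and strand use were not given in the sources used here. Per the file headers, the deposited columns are the levels of both conditions, the log2 ratio between them, the Cuffdiff test statistic (a score), the p-value with its q-value, and a mark of significance. The levels are taken as FPKM (fragments per kilobase of transcript, scaled to the fragments mapped), which Cuffdiff writes in such deposited columns, since the header states no unit. No value per library is held, so depth is unknown, no test was refitted and p-values rest on the spread between libraries that the authors joined in a condition. That spread may be technical, and may hold differences between hairpins if both were joined. The lowest p, 5e-05, is shared by 230 rows.

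Members and lists were chosen with earlier results of these data known. Genes named in the text were those called, the 5 highest in level, the 5 uncalled with the lowest q and a list of known roles, besides others chosen after their values were seen. Of 55 genes with listed roles, 49 were measured. Positions and lengths came from GENCODE M21 on GRCm38, the assembly of mm10, and the longest coding transcript was used. No RefSeq protein was used, so coding transcripts were translated. A profile of the KRAB box was built from 92 sequences matching a strict pattern and searched with pyhmmer at an E-value of up to 0.01. The highest accepted E-value was 0.0018 and the next was 0.623. Python 3.11.15, numpy 2.4.6, pandas 2.3.3, biopython 1.88, pyhmmer 0.12.3 and matplotlib 3.10.9 were used. The recomputing of q, the calls and the medians were tested on simulated data, and the other steps were not. A result on 1 listed gene is not reported here.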

Additional observations from a re-analysis of the deposited data

How the results depend on the processing

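The members' single rise became 0 where log2 folds had to reach 1 in size, 2 at a q of 0.1 and 12 at an unadjusted p under 0.05, a setting chosen after the data were seen. The single fall became 0 at a q of 0.01 and likewise where log2 folds had to reach 1 in size, 2 with q recomputed over rows at a level of at least 1, 4 at a q of 0.1 and 42 at an unadjusted p under 0.05. These follow from the thresholds. The median log2 fold of all members, -0.12, was -0.0665 at levels of at least 5. That of KRAB box rows, -0.29, kept its sign and stayed within 1.5 times under all 11 alternatives run. That of Zfp rows without the box, 0.01, is near 0. It was 0.00711 with no filter on level, 0.0365 at levels of at least 5, 0.0335 without members that share over 5% of windows, -0.0639 without the longest transcripts, -0.0622 and -0.0161 with the median of the same length or level group taken off, -0.0922 without genes whose exons overlap another gene and -0.0931 with stricter KRAB letters. The Zbtb median, 0.09, was 0.0046 with the length group median taken off and 0.16 without overlapping genes. That of Zkscan and Zscan rows, -0.09, was -0.15 with the length group median taken off. The rise among KRAB co-repressor genes became 0 at a q of 0.01. The cause of changes in medians was not tested. Corrections for length and level, sharing and overlap were added after the data were seen. A pseudocount of 1 shrank log2 folds of genes with low levels by over 1.5 times, among them Zfp57, Zkscan4, Zfp85, Zfp108, Zfp273, Zfp7 and Zfp69. No paired analysis was possible because single passages have no deposited values here, only 1 level for each condition. Fits without each replicate were not run, since none could be made.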
